A study of Rattus norvegicus with 6 samples.

Results

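The late entries of the miRNA registry miRBase for the rat were followed on a microarray of cardiac stem cells (CSCs) with and without exosomes. They were taken as every mature probe set whose accession begins with MIMAT and carries the number 0020000 or higher, which gave 49 of the 728 mature rat probe sets. The choice uses the accession alone and no signal. The first late entry is MIMAT0024843_st and the nearest earlier one in the table is MIMAT0017904_st, so no probe set lies close to the threshold on either side. The tables used here pair none of the 49 with a miRNA name, sequence or genome position, and 0 of the 49 accessions occur in the RefSeq sequence table. Each is therefore called by its probe set identifier, and no role is given for any of them.

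The CSC+Exo group is CSCs grown for 3 days in medium with exosomes from passage 4 bone marrow mesenchymal stem cells (MSCs), which were collected with a precipitation reagent. The CSC group is CSCs without exosomes. Both were cells from hearts of Sprague Dawley rats, 4 weeks old, with no genetic change given, and each group has 3 arrays. The labels describe no mock precipitate for the CSC group. They also leave out whether each array had a culture of its own, so the p-values rest on a spread between arrays that may be only technical.

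A mature miRNA is a short RNA cut from a hairpin precursor and loaded into an Argonaute protein, where its seed, a stretch near the 5' end, pairs with messenger RNAs and lowers their translation or stability. Accessions in miRBase are given in order of registration. Early entries hold many abundant and conserved families found by cloning. Late entries come largely from deep sequencing of small RNAs, and miRNAs registered late are in general scarcer and less conserved. Exosomes are small vesicles that carry RNA, including miRNAs, between cells.

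Values are deposited log2 signals, in which 1 unit is a doubling. The level of 1 probe set is never set against that of another as an amount of RNA, since each probe has its own affinity. Detection calls were at hand for the authors' 22 listed miRNAs, of which 0 are late entries. Among these calls the lowest detected signal was 0.819 and the highest undetected signal 1.46, so a call at a signal near 1 went either way. Of the 49 late entries, 24 had a mean under 0.819 and 32 had a mean no higher than 1.46. The 27 cell type markers among miRNAs (muscle, endothelial, stromal, blood, epithelial, neural and liver) have 0 named members in the files, so the labelled cell type was not checked.

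CSC+Exo replicate 3 stands apart from its group. Over the 728 mature probe sets it correlated at 0.980 to 0.981 with CSC+Exo replicates 1 and 2, and at 0.986 to 0.988 with the 3 CSC arrays. The CSC arrays correlated with each other at 0.982 to 0.990, and with CSC+Exo replicates 1 and 2 at 0.974 to 0.986. CSC replicate 3 did not group cleanly either. It correlated at 0.988 with CSC+Exo replicate 3, and at 0.982 and 0.987 with CSC replicates 1 and 2. Results that rest on CSC+Exo replicate 3 are given with and without it.

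A mean of 5 or more over the 6 arrays was reached by 8 late entries, or 16.3% of the 49, and by 163 earlier ones, or 24.0% of 679. Between 2 and 5 there were 8 late entries (16.3%) and 79 earlier ones (11.6%), and under 2 there were 33 (67.3%) and 437 (64.4%). The median of the means was 0.88 for late and 0.84 for earlier entries. Both sets were thus mostly dim on these arrays, and the difference between their shares was not tested. A mean of 4 or more was reached by 12 late entries, and 6 had at least 5 on every array. Just inside the level of 5 lay MIMAT0024846_st with a mean of 5.32, and just outside it lay MIMAT0024847_st with 4.91 and MIMAT0025063_st with 4.81.

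The measurable entries were concentrated in 1 stretch of accessions. The 49 fall into runs of consecutive numbers. The run of 14 from MIMAT0024843_st to MIMAT0024856_st held 6 of the 8 measurable entries, with a median of means of 4.63. The longer run of 29 from MIMAT0025047_st to MIMAT0025075_st held none, its brightest member being MIMAT0025063_st at 4.81, and 25 of the 29 lay under 2. The remaining 6 entries, in 4 short runs, held MIMAT0026467_st and MIMAT0030409_st. At the top, MIMAT0030409_st ranked 32 and MIMAT0024856_st ranked 33 by mean among the 728.

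None of the 49 passed the test between groups. With limma and Benjamini-Hochberg adjustment over all 728 probe sets, 0 late entries had an adjusted p under 0.05, against 0.0% of all mature probe sets, and the smallest adjusted p among the 49 was 0.228. At an unadjusted p under 0.05, 4 late entries (8.16%) were above CSC in CSC+Exo, where 12.1% of all probe sets were, and 4 (8.16%) were below, where 2.47% were. All 3 CSC+Exo arrays lay above all 3 CSC arrays for 8 late entries (16.3%, against 15.9% of all) and below them for 2 (4.08%, against 3.71% of all). On the higher side the shares of late entries were near or under the background, and on the lower side the share by unadjusted p was above it. That share rests on 4 probe sets, and its difference from the background was not tested. After quantile normalization 5 late entries (10.2%) were lower at an unadjusted p under 0.05, against 4.12% of all, and with each array centred on its measurable mature probe sets 15 (30.6%) were, against 20.1% of all.

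Without CSC+Exo replicate 3, limma gave 3 late entries with an adjusted p under 0.05 (6.12% of the 49), against 3.16% of all 728. They were MIMAT0024854_st, MIMAT0024856_st and MIMAT0031125_st. That fit keeps CSC+Exo replicates 1 and 2, which correlated at 0.994. CSC+Exo replicate 3 was singled out from these same values and was the array farthest from the group median in all 3 entries. Leaving it out lowers their spread by construction, so these adjusted p-values are no independent evidence of a difference. An unadjusted p under 0.05 was then reached by 3 higher late entries (6.12%, against 15.4% of all) and 6 lower ones (12.2%, against 4.53% of all). With 2 arrays against 3, the groups did not overlap for 10 higher late entries (20.4%, against 28.6%) and for 9 lower ones (18.4%, against 9.34%).

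The differences, CSC+Exo minus CSC, had a median of 0.059 log2 over the 49 and of 0.084 over the 679 earlier entries. Over the 8 measurable late entries the median was 0.49 log2, with 5 higher and 3 lower, and over the 163 earlier measurable ones it was 0.39, with 139 higher and 24 lower. After quantile normalization these medians were 0.079 and 0.057. The late differences ran from -2.23 to 1.95. A difference of 1 log2 or more in either direction was seen in 3 of the 8 measurable late entries (37.5%) and in 9 of the 163 earlier ones (5.52%). The 3 were MIMAT0024854_st, MIMAT0024856_st and MIMAT0030409_st, and in each the large difference came with arrays of 1 group that were far apart. The CSC mean of MIMAT0024854_st was 4.64, so its high CSC+Exo replicates 1 and 2 carried it over the mean of 5. Its place among the 8 is thus not independent of its difference. Between a mean of 2 and 5 the order was the other way, with 1 of 8 late entries (12.5%) and 21 of 79 earlier ones (26.6%) at 1 log2 or more.

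MIMAT0024854_st had log2 signals of 8.50, 8.32 and 2.98 in CSC+Exo replicates 1, 2 and 3, against 4.46, 4.46 and 5.004 in the CSC arrays. Replicates 1 and 2 lay above every CSC array and replicate 3 below every one, so the groups overlapped. The range within CSC+Exo was 5.52 log2, or 45.9-fold, and the SD of 3.14 was the highest of all 728 probe sets in that group; the highest among earlier entries was 2.40. In CSC the SD was 0.31. The difference was 1.95 ± 1.47 log2 (SE; limma adjusted p = 0.619), and without CSC+Exo replicate 3 it was 3.77 (adjusted p = 0.00223). Without CSC+Exo replicate 1 it was 1.004 (adjusted p = 0.887), and without replicate 2 it was 1.10 (adjusted p = 0.872).

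MIMAT0024856_st had 9.22, 9.27 and 12.60 in CSC+Exo replicates 1, 2 and 3, against 12.64, 12.48 and 12.65 in CSC. The first 2 CSC+Exo arrays were more than 3 log2 under every CSC array, whereas replicate 3 lay inside the CSC range. The 3 CSC arrays were tight, with an SD of 0.093, and the CSC+Exo SD of 1.93 ranked 4 of 728. The difference of -2.23 ± 0.90 log2 (SE) corresponds to a 4.68-fold lower mean signal in CSC+Exo, with a limma adjusted p of 0.331. It was -3.34 (adjusted p = 0.000766) without CSC+Exo replicate 3, and -1.66 and -1.68 without replicates 1 and 2. By size it ranked 3 among the 728 differences.

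MIMAT0030409_st showed its break in the other group. Its signals were 12.40, 12.59 and 12.01 in CSC+Exo, against 12.41, 9.82 and 9.78 in CSC replicates 1, 2 and 3. CSC replicate 1 lay among the CSC+Exo arrays, and CSC replicates 2 and 3 lay below all others. The CSC range was 2.63 log2, or 6.19-fold, and the SD of 1.51 ranked 7 of 728 in that group, against an SD of 0.29 in CSC+Exo. The difference was 1.66 ± 0.72 log2 (SE; limma adjusted p = 0.344), 3.17-fold. Without CSC replicate 1 it was 2.53 (adjusted p = 0.0404), the only mature probe set called in that fit. Without CSC replicates 2 and 3 it was 1.24 and 1.22 (limma adjusted p = 0.55 and 0.572).

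Some dimmer late entries shared the arrangement of MIMAT0024856_st. MIMAT0025055_st had 1.66, 1.57 and 4.56 in CSC+Exo, against 4.49, 3.92 and 2.87 in CSC. Its CSC+Exo replicate 3 was the highest of the 6 arrays and replicates 1 and 2 the lowest. The difference was -1.16 ± 0.88 log2 (SE; limma adjusted p = 0.621), and -2.14 (adjusted p = 0.0889) without replicate 3. MIMAT0031125_st had 0.25, 0.71 and 2.38 in CSC+Exo, against 3.01, 2.18 and 3.21 in CSC. Here CSC+Exo replicate 3 lay just above the lowest CSC array and replicates 1 and 2 lay below all of CSC. The difference was -1.68 ± 0.59 log2 (SE; limma adjusted p = 0.310), and -2.32 (adjusted p = 0.0414) without replicate 3. Without CSC+Exo replicates 1 and 2 it was -1.25 and -1.48 (limma adjusted p = 0.597 and 0.652). All signals of MIMAT0031125_st were under 4. Those of CSC+Exo replicates 1 and 2 were under the highest undetected signal of 1.46, and the other 4 arrays were above it.

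These 4 probe sets, MIMAT0024854_st, MIMAT0024856_st, MIMAT0025055_st and MIMAT0031125_st, were the late entries with a range of at least 2 log2 within CSC+Exo, a width chosen after the values were seen. They are 8.16% of the 49, and 29 earlier entries (4.27% of 679) were as wide. In all 4 the array farthest from the group median was CSC+Exo replicate 3, as it was for 28 of the 33 wide mature probe sets. Among measurable probe sets, 2 of 8 late entries (25.0%) and 1 of 163 earlier ones (0.613%) were that wide in CSC+Exo. Within CSC, 1 of the 8 (12.5%) and 1 of the 163 (0.613%) were. MIMAT0024854_st, 1 of the 2 wide in CSC+Exo, passed the mean of 5 through its high CSC+Exo replicates 1 and 2. Between a mean of 2 and 5 the order was reversed. There 1 of 8 late entries (12.5%) and 19 of 79 earlier ones (24.1%) were that wide in CSC+Exo. Within CSC, 0 of these 8 and 16 of the 79 (20.3%) were. The part that CSC+Exo replicate 3 as a whole has in these widths was not tested.

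Over all 8 measurable late entries, the wide ones included, the median SD was 0.18 in CSC+Exo and 0.34 in CSC, and over the 163 earlier ones it was 0.21 and 0.28. The highest CSC SDs among the 8 were 1.51 for MIMAT0030409_st, 0.69 for MIMAT0026467_st and 0.44 for MIMAT0024846_st. Late entries with a mean between 2 and 5 had median SDs of 0.23 in CSC+Exo and 0.34 in CSC, where earlier ones had 0.51 and 0.57. Under a mean of 2 the late medians were 0.17 in CSC+Exo and 0.18 in CSC, against 0.19 and 0.17 for earlier entries. Low SDs of dim probe sets describe a flat background and do not show that a miRNA was measured precisely.

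MIMAT0024843_st had the smallest p of the 49. Its signals were 8.68, 8.73 and 8.79 in CSC+Exo, against 7.91, 8.16 and 8.11 in CSC. All CSC+Exo arrays lay above all CSC arrays, with SDs of 0.059 in CSC+Exo and 0.13 in CSC. The difference of 0.67 ± 0.13 log2 (SE), 1.59-fold, had an unadjusted p of 0.00172 and a limma adjusted p of 0.228. It was 0.64 to 0.72 when any 1 CSC+Exo replicate or CSC replicate 2 or 3 was left out and 0.60 without CSC replicate 1. After quantile normalization it was 0.10, and with each array centred on its measurable mature probe sets it was 0.30. Centring shifts all probe sets alike, whereas quantile normalization moved them unequally, with MIMAT0031125_st still at -1.68.

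MIMAT0024846_st had 5.59, 5.74 and 5.56 in CSC+Exo, against 5.06, 5.44 and 4.56 in CSC. The groups did not overlap, and CSC was the more spread, with an SD of 0.44 against 0.10 in CSC+Exo. The difference was 0.61 ± 0.24 log2 (SE; limma adjusted p = 0.319), 1.53-fold, and 0.26 after quantile normalization. MIMAT0024855_st had 10.26, 10.21 and 10.45 in CSC+Exo, against 9.71, 10.12 and 9.96 in CSC. These groups did not overlap either, by a narrow margin. The difference was 0.38 ± 0.16 log2 (SE; limma adjusted p = 0.344), 0.056 after quantile normalization and, with the sign turned, -0.001 when centred on measurable mature probe sets.

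MIMAT0024853_st was the measurable entry whose CSC+Exo arrays were all below CSC. It had 9.73, 9.53 and 9.27 in CSC+Exo, against 9.82, 10.04 and 10.53 in CSC. The gap between the nearest arrays was small beside the spread within either group. The difference was -0.62 ± 0.23 log2 (SE; limma adjusted p = 0.310), a 1.54-fold lower mean. Unlike the higher entries it was larger after scaling, at -0.94 with quantile normalization and -0.99 centred on measurable mature probe sets.

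MIMAT0026467_st had 5.98, 6.15 and 6.10 in CSC+Exo, against 5.38, 6.56 and 6.58 in CSC. The CSC+Exo arrays sat between CSC replicate 1 and the other two CSC arrays. The difference was -0.10 ± 0.34 log2 (SE; limma adjusted p = 0.932), and its sign turned to 0.10 without CSC replicate 2 and 0.11 without CSC replicate 3. With any 1 array left out it ran from -0.50 to 0.11. Within the 8, the SD of CSC+Exo was under that of CSC for 6 and above it for MIMAT0024854_st and MIMAT0024856_st.

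Of the late entries between 2 and 5, MIMAT0025063_st had 4.97, 5.09 and 5.53 in CSC+Exo, against 3.87, 4.44 and 4.95 in CSC. All CSC+Exo arrays were above CSC, the closest pair nearly touching. The difference was 0.77 ± 0.31 log2 (SE; limma adjusted p = 0.324), and 0.50 after quantile normalization. MIMAT0024847_st had 5.12, 5.74 and 4.75 in CSC+Exo, against 4.54, 4.96 and 4.33 in CSC, and these overlapped. Its difference was 0.59 ± 0.29 log2 (SE; limma adjusted p = 0.425).

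The others in this class, with MIMAT0025055_st described above, were named after their values were seen. MIMAT0024844_st, MIMAT0024845_st, MIMAT0024852_st and MIMAT0025057_st had differences of 0.30, 0.45, 0.61 and 0.41 log2, and MIMAT0025052_st had -0.54, with limma adjusted p between 0.339 and 0.448. Centred on measurable mature probe sets the 4 higher ones were at -0.081, 0.073, 0.23 and 0.039, the sign of MIMAT0024844_st being turned, and MIMAT0025052_st was at -0.91. Of these 5 only MIMAT0024844_st, at 3.59, 3.34 and 3.62 in CSC+Exo against 3.24, 3.25 and 3.17 in CSC, had groups that did not overlap. The class had 6 of 8 entries higher in CSC+Exo, with a median of 0.43 log2, against 46 of 79 and 0.18 among earlier entries.

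The 33 late entries under a mean of 2, with means of 0.22 to 1.96, were split, with 16 higher and 17 lower and a median difference of -0.037 log2, against 0.041 for earlier ones. MIMAT0025058_st had 0.92, 0.45 and 0.71 in CSC+Exo, against 0.42, 0.21 and 0.16 in CSC (0.43 ± 0.17 log2, SE; limma adjusted p = 0.319). MIMAT0025051_st had 0.54, 0.77 and 0.99 in CSC+Exo, against 1.63, 1.53 and 0.91 in CSC (-0.59 ± 0.24 log2, SE; limma adjusted p = 0.328). Both had an unadjusted p under 0.05, the groups of MIMAT0025058_st did not overlap, and their signals lay around or under the level where detection calls were mixed. MIMAT0025047_st, MIMAT0025073_st and MIMAT0025075_st, which were named after their values were seen, also had groups that did not overlap, with differences of 0.14, -0.66 and 0.25 log2 at means of 0.42, 1.11 and 0.62. Centred on measurable mature probe sets these were -0.24, -1.03 and -0.12, so 2 of the 3 turned sign, and the difference of MIMAT0025058_st was 0.054.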

How the data were processed

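RNA of 6 samples was labelled with biotin and hybridized to Affymetrix miRNA arrays of version 4.0, per the file headers. Expression Console and MAS5 appear, with no version, in the submitters' processing notes, but RMA appears in the headers; which of them gave the values is not settled. The authors' note sheet calls the deposited signals log2, and they were used with no further normalization. Detection calls come from the authors' list.

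Groups and replicate numbers come from the sample titles, and 0 value columns were unmapped. The 728 mature probe sets were fitted with limma 3.58.1 (lmFit, eBayes) in R 4.3.3, CSC+Exo minus CSC, with Benjamini-Hochberg adjustment over all of them and a threshold of 0.05. The 490 hairpin and 59 control probe sets were left out. SD is over 3 arrays and SE is limma's moderated error. Tables were made with Python 3.11.15. The fit was also tried on simulated data with noise drawn independently for each probe set and array. Those data hold no array that stands apart as a whole, so they do not bear on CSC+Exo replicate 3. No array duplicated another: a pair differed at 708 or more mature probe sets.

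Members, thresholds and alternatives were chosen with earlier results of these data known. Named are all late entries with a mean of at least 5 or an unadjusted p under 0.05, the 3 with the widest SD in each group, and those beside the thresholds; others are marked where they appear. Chip signals carry no read depth, and the number of arrays limits the precision.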

Additional observations from a re-analysis of the deposited data

How the results depend on the processing

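The 14 named late entries were refitted under 15 alternatives, which gave 201 values: 193 kept direction and side of the threshold, 4 passed an adjusted p of 0.05 with an array left out, and 4 turned sign. Those that turned were MIMAT0024855_st at -0.001 (centred on measurable probe sets), MIMAT0025055_st at 0.024 (signals under 4 set to 4), and MIMAT0026467_st at 0.10 and 0.11 (without CSC replicates 2 and 3; -0.50 to 0.11 with any 1 array left out). The median difference of the 728 was 0.082 as deposited, 0.008 after quantile normalization and -0.29 centred on measurable probe sets.

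In the same 2 scalings the median of the 8 measurable late entries, 0.49 as deposited, was 0.079 and 0.12, and it ran from 0.38 to 0.60 with 1 array left out. Late entries with an unadjusted p under 0.05 numbered 0 higher in both scalings (4.67% and 2.34% of all 728), against 4 as deposited. When centred, 15 were lower (30.6%, against 20.1% of all). Without probe sets under 5, 2 of 8 were higher and 2 lower (31.0% and 2.92% of all 171). With signals under 4 set to 4, 2 of 13 were lower (4.11% of all 219), and with hairpins 7 were higher (14.3%, against 13.9%). Non-overlapping entries, 8 higher and 2 lower as deposited, numbered 1 higher and 4 lower after quantile normalization (2.04% and 8.16%, against 7.83% and 6.04% of all). Median centring gave 4 lower (8.16%, against 4.67%). Centring on measurable probe sets gave 1 higher and 17 lower (2.04% and 34.7%, against 3.85% and 29.9%). With signals under 4 set to 4 there were 4 higher and 1 lower of 13 (30.8% and 7.69%, against 32.0% and 3.65%). With 1 array left out, unadjusted counts ran over 2 to 5 higher and 0 to 6 lower. Shares of all 728 were 4.95% to 15.4% and 0.275% to 4.53%. Non-overlap counts ran over 9 to 13 higher (18.4% to 26.5%, against 19.1% to 28.6% of all). Lower entries numbered 2 to 9 (4.08% to 18.4%, against 6.46% to 9.34% of all). All 6 arrays gave lower shares of all (15.9% and 3.71%). Adjusted calls ran over 0 to 3, with 3 without CSC+Exo replicate 3 and 1 without CSC replicate 1. A start at 0017000 gave 30 measurable entries, adding earlier ones.

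The replicate block gave 0 adjusted calls. At an unadjusted p under 0.05, 6 were higher and 3 lower (12.2% and 6.12%, against 12.9% and 2.34% of all). Deviations correlated at 0.0352, 0.324 and 0.291 for same-numbered arrays and -0.376 to 0.243 for others. Pairing was not assumed. Groups of 3 were not tested for outliers.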
